A study of Mus musculus with 16 samples.

Results

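Collagen VI and the fibril-associated collagens were followed through 6 genes, *Col6a1*, *Col6a2*, *Col6a3*, *Col12a1*, *Col14a1* and *Col16a1*. The genes were taken by name, through their Ensembl identifiers. All 6 were found among the 29629 genes of the single-cell table and the 47729 genes of the bulk table. The single cells came from 1 mouse iPSC clone that carried ScxGFP, a transgene in which regulatory sequence of *Scx* drives GFP. Mesodermal cells before TGF-β2 (T0), which had been induced with CHIR99021 and cyclopamine, are called untreated here. They were compared with cells given recombinant human TGF-β2 at 10 ng/ml and collected after 3 days (T3), 6 days (T6) or 9 days (T9). No sample was kept for these days without TGF-β2, so its effect and that of time in culture cannot be told apart. Each time had 3 plates of 384 wells. Live single cells were sorted without a gate on GFP, so the plates could hold every live cell type of the culture. Nothing in the sources used here says that the plates of a time point came from separate cultures. P-values on plates therefore measured a spread that may be technical. The bulk libraries were poly(A) RNA of Achilles tendon from 2-week-old Scx_Wt and Scx_homoKO (*Scx* -/-) littermates, with 2 libraries for each genotype, and it was not stated whether animals were pooled.

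Collagen VI is a beaded microfibril that surrounds cells and links the pericellular matrix to the fibrils of the interstitium. Its monomer is built from the chains encoded by *Col6a1*, *Col6a2* and *Col6a3*, and the α3 chain can be replaced by the products of *Col6a4*, *Col6a5* or *Col6a6*. Collagens XII, XIV and XVI belong to the fibril-associated collagens with interrupted triple helices, which do not form fibrils alone but sit on the surface of collagen I and II fibrils. In tendon, collagens XII and XIV are known for their part in fibril assembly and in the organisation of fibres, and mutations of collagen VI or XII genes cause human myopathies with contractures and loose joints. *Scx* encodes a basic helix-loop-helix factor of tendon progenitors, a class of protein that binds the E-box, and *Tnmd* encodes the membrane protein tenomodulin, a marker of maturing tenocytes.

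In the GRCm38 gene models of GENCODE M21, *Col6a1* (ENSMUSG00000001119, chr10:76708792-76726168) and *Col6a2* (ENSMUSG00000020241, chr10:76595762-76623630) lay on the minus strand of the same chromosome, 85161 bases apart. *Col6a3* (ENSMUSG00000048126) was at chr1:90765923-90843971 on the minus strand and *Col12a1* (ENSMUSG00000032332) at chr9:79598991-79718831 on the minus strand. *Col14a1* (ENSMUSG00000022371) was at chr15:55307750-55520803 and *Col16a1* (ENSMUSG00000040690) at chr4:130047840-130099283, both on the plus strand. An antisense gene lay inside *Col12a1* (4930562D21Rik), and 3 genes lay inside *Col14a1* on the other strand (1700040F17Rik, Gm18787 and Gm49257). The strand setting of the counting was not given in the sources used here, so reads of these partners cannot be told apart from those of the 2 collagens. A further gene model, Gm36970, overlapped *Col6a3* on the same strand.

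The sequence before the start site is shown for the 4 genes that had an entry in the RefSeq promoter table (GRCm38.p6), *Col6a1*, *Col6a2*, *Col6a3* and *Col16a1*. Their levels had no part in this choice. *Col12a1* and *Col14a1* had no entry. Each sequence is read 5′ to 3′ on the strand of the gene and ends just before the first base of the gene model. For *Col6a1* this left 126 bases, since its gene model begins upstream of the RefSeq start, and for the other genes 250 bases. Capitals mark the E-box, CANNTG, which reads the same on both strands.
Col6a1, chr10:76726169-76726294 (- strand): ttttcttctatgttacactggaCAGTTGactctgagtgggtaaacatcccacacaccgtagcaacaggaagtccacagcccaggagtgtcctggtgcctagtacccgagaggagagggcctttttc
Col6a2, chr10:76623631-76623880 (- strand): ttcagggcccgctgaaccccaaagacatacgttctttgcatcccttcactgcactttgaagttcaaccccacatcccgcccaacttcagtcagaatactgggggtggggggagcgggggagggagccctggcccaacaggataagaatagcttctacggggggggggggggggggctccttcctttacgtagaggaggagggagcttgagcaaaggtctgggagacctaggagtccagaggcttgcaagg
Col6a3, chr1:90843972-90844221 (- strand): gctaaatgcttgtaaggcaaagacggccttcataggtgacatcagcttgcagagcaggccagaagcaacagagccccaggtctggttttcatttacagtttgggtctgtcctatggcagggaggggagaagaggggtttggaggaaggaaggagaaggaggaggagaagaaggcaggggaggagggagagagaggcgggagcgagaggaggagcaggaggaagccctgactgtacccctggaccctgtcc
Col16a1, chr4:130047590-130047839 (+ strand): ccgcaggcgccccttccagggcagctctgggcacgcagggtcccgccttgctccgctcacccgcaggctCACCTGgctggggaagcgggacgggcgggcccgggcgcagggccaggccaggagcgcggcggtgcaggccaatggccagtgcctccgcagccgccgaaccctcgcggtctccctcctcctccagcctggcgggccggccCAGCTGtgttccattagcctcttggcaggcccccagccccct
The E-box letters occurred 1 time before *Col6a1* and 2 times before *Col16a1*, and were not found in the windows of *Col6a2* and *Col6a3*. Among the 27025 genes of the table, 66.0% held an E-box in the 250 bases before the start. The Smad box, CAGAC or its reverse complement GTCTG, was found 1 time before *Col6a2* and 2 times before *Col6a3*, against 42.1% of all genes with at least 1. The GC box, GGGCGG or CCGCCC, was found 1 time before *Col6a2* and 1 time before *Col16a1*, against 32.9% of all genes. The TATA box, TATAAA or TTTATA, was found in none of the 4 windows and before 13% of all genes. Matches of different motifs may share letters. The GC content was 75.6% before *Col16a1* and between 51.6% and 59.2% before the collagen VI genes, with a median of 52.0% over all genes. These are counts of letters, and no binding was measured here.

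The single-cell table held unique molecular identifiers (UMIs), each standing for 1 captured transcript, and levels are given as UMIs per 1000000 UMIs of the plate (CPM). Bulk levels are CPM of counts. Of 4608 wells, 4594 had at least 200 genes and were kept. The plates held 1921125 to 4657093 UMIs, and no 2 wells were identical. The well barcodes were the same set of 384 on every plate by the plate format, so they do not mark shared cells. The plates were divided here into some with more and some with fewer reads without a feature, from the numbers of such reads in the study's mapping summary, which itself makes no such division. All T0 plates were of the first kind, as were T3 replicate 2, T6 replicates 1 and 3 and T9 replicate 3. In all 18 combinations of a gene with T3, T6 or T9, the plates of the first kind had the higher level. Each time had only 1 or 2 plates on a side and the 6 genes are correlated over these plates, so the 18 are not separate results. How many of all genes had the same order was not counted. Values within each side are given below. Between T0 and T9, the summed level of 6 smooth muscle markers went from between 320 and 651 CPM to between 2358 and 3673, and that of 5 epithelial markers from between 382 and 495 to between 25.2 and 113. The 8 pluripotent cell markers summed to between 371 and 780 at T0 and between 0.332 and 296 at T9. The 10 tenocyte markers, which include *Scx*, *Tnmd*, *Fmod* and both collagen I genes but none of the 6 collagens, summed to between 807 and 824 at T0, with *Tnmd* and *Kera* at 0, and to between 14453 and 41692 at T9. The 6 endothelial markers summed to between 11.8 and 16.1 at T0 and between 45.9 and 99.8 at T9, with *Cdh5* and *Tie1* at 0 at T9. The 4 adipocyte markers summed to between 0 and 0.695 at T0 and between 24.2 and 53.8 at T9, with *Adipoq* and *Cidec* at 0 at T9, and the 6 chondrocyte markers in the table went from between 199 and 221 to between 57.5 and 127, with 2 of 3 tested genes called lower. The part of these cells in the collagen levels was not tested.

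The collagen VI chains were close to 0 in the untreated cells and rose at T3 and again at T6. The α1 chain gene *Col6a1* was at 3.65, 5.33 and 6.19 CPM in the T0 plates, at 147, 281 and 189 at T3, at 1129, 594 and 1117 at T6 and at 1335, 1147 and 2230 at T9. Plates of consecutive time points did not overlap. *Col6a2*, the α2 chain gene, was at 0.859, 0.695 and 0.807 at T0, where it rested on 10 UMIs in all, then at 101, 256 and 166 at T3, at 908, 512 and 832 at T6 and at 1237, 872 and 1869 at T9. It was the lowest of the 6 genes at T0 and the second highest, after *Col6a1*, in each plate of T6 and T9. *Col6a3*, which encodes the largest of these chains, was at 3.44, 5.56 and 5.65 at T0, at 105, 122 and 91.6 at T3, at 405, 215 and 405 at T6 and at 344, 223 and 505 at T9. Its T6 and T9 plates overlapped. The 3 other collagen VI genes did not take part: *Col6a4*, *Col6a5* and *Col6a6* had between 0 and 4 UMIs over the 3 plates of any time point. The plot of levels by plate shows the 6 genes on a common scale.

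**Figure D1:**
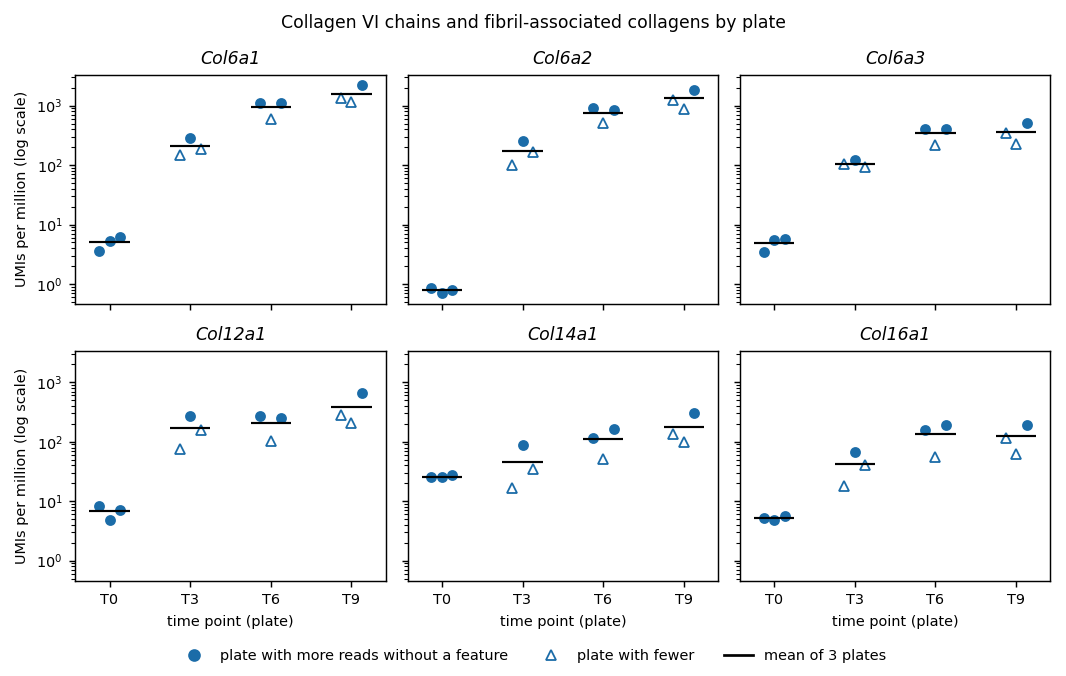
Levels of the 6 collagen genes in each plate, in CPM on a log scale, by time of treatment. Filled circles are plates with more and open triangles plates with fewer reads without a feature, and bars are means of 3 plates. *Col6a1* goes from a mean of 5.06 to 1571, *Col14a1* from 26.0 to 179, and the filled circles lie above the triangles at each treated time.

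Among the fibril-associated collagens, the starting levels and the steps differed. *Col12a1*, the collagen XII gene, was at 8.37, 4.86 and 7.0 CPM at T0, at 76.5, 275 and 161 at T3, at 273, 105 and 251 at T6 and at 287, 204 and 660 at T9. The T3 plates were all above T0, and the T3, T6 and T9 plates overlapped. *Col16a1*, the collagen XVI gene, was at 5.15, 4.86 and 5.65 at T0, at 18.2, 67.8 and 41.1 at T3, at 156, 54.4 and 194 at T6 and at 116, 62.6 and 192 at T9. It too was separate from T0 at T3 and overlapped between the later times. *Col14a1*, the collagen XIV gene, was the highest of the 6 at T0, at 25.3, 25.2 and 27.4, and its T3 plates lay on both sides of that, at 16.7, 86.6 and 34.5. It was at 115, 51.2 and 167 at T6 and at 136, 99.9 and 302 at T9.

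From T0 to T3, 5 of the 6 genes rose by edgeR's quasi-likelihood test with Benjamini-Hochberg adjustment over 13372 genes. Of all genes tested, 17% were called and higher. The log2 fold change was 7.90 ± 0.38 (SE) for *Col6a2* (adjusted p = 9.93e-09), 5.54 ± 0.29 for *Col6a1* (adjusted p = 1.83e-08) and 4.67 ± 0.29 for *Col6a3* (adjusted p = 6.87e-08). *Col12a1* rose by 4.82 ± 0.45 (adjusted p = 2.86e-06) and *Col16a1* by 3.20 ± 0.46 (adjusted p = 0.000141). *Col14a1*, with 0.98 ± 0.43, did not pass (adjusted p = 0.0940), but it was called without T3 replicate 1 (1.30, adjusted p = 0.0327), and its value without T3 replicate 2 was 0.35 (adjusted p = 0.540). It was also called by edgeR with the plate split as a covariate (1.57, adjusted p = 4.75e-05), with no filter on low counts (0.91, adjusted p = 0.00169) and with only the 6 plates compared (adjusted p = 0.0334). The median over the 6 genes was 4.74, against 0.01 over all genes tested. A split into plates with more and fewer reads without a feature left only T3 replicate 2 beside the T0 plates, and in it the ratio to T0 was between 3.33 for *Col14a1* and 325 for *Col6a2*.

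From T3 to T6, 4 genes rose, where 2.61% of all genes were called and higher. *Col6a1* rose by 2.22 ± 0.24 on the log2 scale (adjusted p = 0.000323), *Col6a2* by 2.14 ± 0.25 (adjusted p = 0.000431), *Col6a3* by 1.67 ± 0.24 (adjusted p = 0.00156) and *Col16a1* by 1.67 ± 0.39 (adjusted p = 0.0256). The call of *Col16a1* was lost without T3 replicate 1, T3 replicate 3, T6 replicate 1 or T6 replicate 3, with an adjusted p between 0.0856 and 0.134. The 2 others did not pass, with 0.33 ± 0.36 for *Col12a1* (adjusted p = 0.685) and 1.31 ± 0.42 for *Col14a1* (adjusted p = 0.1). *Col14a1* was called by DESeq2 (adjusted p = 0.0402) and by edgeR without T3 replicate 2 (1.92) or without T6 replicate 2 (1.57). Among plates with more featureless reads, the T6 over T3 ratio was 3.99 for *Col6a1* and 0.954 for *Col12a1*. Among those with fewer, it was 3.53 and 0.886. *Col12a1* was thus near its T3 level at T6 on both sides of the split, while *Col6a1* was more than 3 times as high.

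From T6 to T9, *Col6a1* (0.97 ± 0.23, adjusted p = 0.0495) and *Col6a2* (1.05 ± 0.24, adjusted p = 0.0437) passed narrowly, where 0.935% of all genes were called and higher. These calls were not stable: without T6 replicate 1, 2 or 3, or without T9 replicate 1, neither gene was called, and without T9 replicate 2 only *Col6a2* was. The other genes gave 1.08 ± 0.36 for *Col12a1* (adjusted p = 0.164), 0.91 ± 0.40 for *Col14a1* (adjusted p = 0.287), 0.30 ± 0.23 for *Col6a3* (adjusted p = 0.538) and 0.12 ± 0.37 for *Col16a1* (adjusted p = 0.900). The split bore on this step, since 2 plates of T6 and 1 of T9 had more featureless reads. Among these the T9 over T6 ratio was 1.99 for *Col6a1*, 2.15 for *Col6a2*, 2.52 for *Col12a1* and 2.15 for *Col14a1*, and 1.25 for *Col6a3* and 1.10 for *Col16a1*. Among the other plates the ratios were 2.09, 2.06, 2.34, 2.30, 1.32 and 1.64 in the same order. With the split as a covariate, 4 of the 6 genes were called, where 446 of 13372 genes were called and higher.

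Between T0 and T9, all 6 genes rose, where 23.6% of all genes were called and higher. The log2 fold change was largest for *Col6a2* (11.10 ± 0.40) and *Col6a1* (8.73 ± 0.33), followed by *Col6a3* (6.64 ± 0.31), *Col12a1* (6.23 ± 0.47), *Col16a1* (4.99 ± 0.47) and *Col14a1* (3.19 ± 0.44). The largest adjusted p of the 6 was that of *Col14a1*, at 4.94e-05. This comparison shares its plates with the steps above and is no separate evidence for them.

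The chains of collagen VI did not keep their proportions. CEL-Seq2 reads the 3′ end of a transcript, so UMI counts need no division by length, but capture may differ between genes and the ratios are not a stoichiometry of the protein. *Col6a1* had 1.45, 1.10 and 1.14 UMIs for each UMI of *Col6a2* at T3, 1.24, 1.16 and 1.34 at T6 and 1.08, 1.32 and 1.19 at T9, so that this ratio overlapped between the treated times. The ratio of *Col6a1* to *Col6a3* was 1.40, 2.30 and 2.06 at T3, 2.78, 2.76 and 2.76 at T6 and 3.88, 5.14 and 4.42 at T9. It did not overlap between any of these times. The plate with more reads without a feature was the highest of the 3 at T3 and the middle one at T9. At T0 it was between 0.958 and 1.10, on 16 to 24 UMIs of each gene in a plate. *Col12a1* had 0.193 to 0.331 UMIs for each UMI of *Col14a1* at T0, 3.17 to 4.66 at T3, 1.51 to 2.38 at T6 and 2.05 to 2.19 at T9, a ratio that was highest at T3.

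In single cells, *Col6a1* and *Col6a2* went from a few cells to most cells, and *Col6a3* reached about as many cells as *Col12a1*. To set cells of unlike depth side by side, every cell was thinned to 3000 UMIs, which left out 293 of 4594 cells. The share of cells with a UMI of *Col6a1* was 1.30% ± 1.13 (SD, n = 3 plates) in untreated cells. It was 28.4% ± 7.8 at T3, then 78.9% ± 12.5 and 91.1% ± 3.7 at the later times. Without thinning, it was 3.75% at T0 and 96.9% at T9. For *Col6a2* the thinned share went from 0.280% at T0 to 88.3% at T9, and for *Col6a3* from 1.49% to 51.2%, with plates of T9 between 37.8% and 63.6%. *Col12a1* was found in 1.68% of T0 cells and in 51.7% of T9 cells. *Col16a1* went from 1.40% to 25%, with 30.1% at T6. *Col14a1* started at 7.75% and stood at 8.45% at T3, 20.7% at T6 and 28.1% at T9. In an exact two-sided permutation test of the 3 T0 plates against the 9 treated plates, 5 genes gave p = 0.00909, the smallest value that this design can give, with all 9 treated plates above every T0 plate. *Col14a1* gave an exact permutation p = 0.136, with 7 of 9 plates above. Cells with UMIs of *Tdgf1*, *Utf1* and *Sox2*, markers of pluripotent cells, were set beside the others as a reading of background. Of the 78 such cells at T0, with a median of 17083.5 UMIs, 3.85% had a UMI of *Col6a1* and 14.1% one of *Col14a1* before thinning. Of the 1069 other T0 cells, with a median of 9927 UMIs, 3.74% and 15.4% did. After thinning, *Col14a1* was in 5.13% of the 78 cells and 7.96% of the 993 others, and its level was 11.8 against 27.7 CPM. *Col6a1* was in 0 of the 78 cells, which allows a share of up to 3.85%, and in 1.41% of the others, with 2.08 against 5.33 CPM. Both levels were lower in the cells with pluripotent markers. This difference was not tested, and the T0 shares could not be told apart from background at this number of cells. In the treated plates, 26 cells had the 3 markers, with a median of 19179 UMIs, and 80.8% of them held *Col6a1* and 76.9% *Col6a2*. After thinning these shares were 34.6% and 23.1%, against 67.1% and 62.1% of 3204 other cells, and the *Col6a1* level was 144 against 987 CPM. At T3, *Col6a1* was in 0 of 10 such cells after thinning and in 29.0% of 1028 others, and at T9 in 50% of 12 and 91.5% of 1099. At T9 the *Col6a1* share of the other cells thus lay above this reading, which was itself well above 0. At T3 the 10 cells were too few to tell the shares apart. Before thinning, 50% of these 10 cells held *Col6a1*, with a median of 15761 UMIs. Of the 1141 others at T3, with a median of 5656 UMIs, 40.2% did. Whether the UMIs in the cells with pluripotent markers came from free RNA was not tested.

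The cells that held all 3 collagen VI chain genes were counted at the same depth. At T0, 97.0% ± 1.40 held none, and 0 of 1071 cells held all 3, which allows a share of up to 0.280% by counting error. Cells with none made up 47.9% ± 12 at T3, 6.71% ± 5.74 at T6 and 1.96% ± 1.61 at T9. Cells with all 3 made up 2.74% ± 1.45 at T3, 34.0% ± 14.7 at T6 and 43.5% ± 13.9 at T9. Over the plates of T9 this share ran from 29.2% to 57.0%, and at T6 from 17.1% to 42.6%, so that these times overlapped. The stacked shares by plate show that at T9 most of the remaining cells held 2 chain genes (45.7% ± 7.6).

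**Figure D2:**
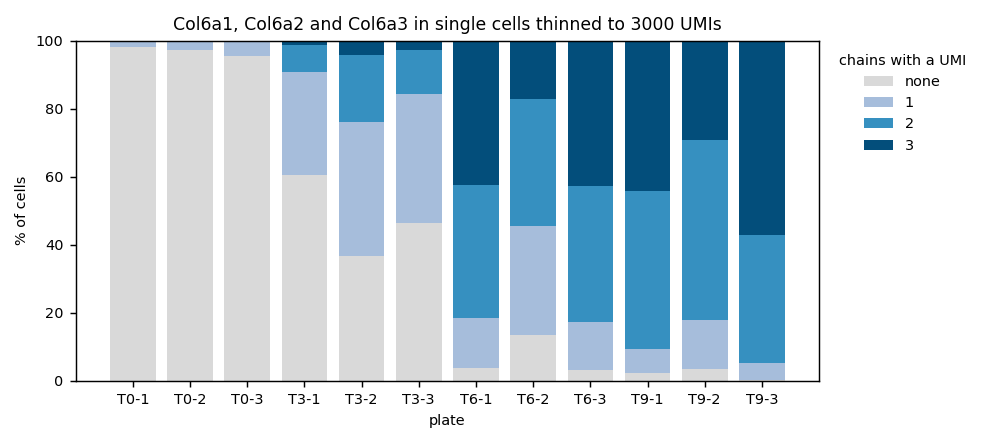
Share of cells, in percent, with a UMI of none, 1, 2 or 3 of *Col6a1*, *Col6a2* and *Col6a3* in each plate after thinning each cell to 3000 UMIs. Nearly all T0 cells hold none (95.5% to 98.3%), and at T9 cells without any chain make up 0.275% to 3.49%.

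The genes whose plate profile was most like each member were taken from 3585 other genes with a mean of at least 50 CPM, by the Pearson correlation of log2 CPM over the 12 plates. These correlations describe profiles that share the time course and the plate split. The closest to *Col6a1* were *Col6a2* (r = 0.997), *Col1a2* (r = 0.996) and *Col6a3* (r = 0.994). *Col6a2* was closest to *Col8a2* (r = 0.997), *Col6a1* and *Npdc1*, and *Col6a3* to *Loxl1* (r = 0.995), *Col1a2* and *Col6a1*. *Col12a1* was closest to *Col1a1* (r = 0.988), *Mmp2* and *Col11a1*, and *Col16a1* to *Timp2* (r = 0.995), *Igf2* and *Col1a1*. *Col14a1* had the lowest best match, with *Itm2c* (r = 0.970), *Cdkn1a* and *Ctdsp2*. Over the 9 treated plates alone, the correlation between members was between 0.673 (*Col6a3* with *Col12a1*) and 0.995 (*Col6a1* with *Col6a2*).

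Other matrix genes gave a frame for these changes. Of 11 fibril-forming collagen genes, 9 could be tested on the plates, and from T0 to T3, 7 rose and none fell. *Col1a2* (4.22 ± 0.33 on the log2 scale) and *Col1a1* (3.99 ± 0.42), the chains of collagen I, had the largest change. From T0 to T9, 7 rose and 1 fell, with *Col1a2* at 6.37 ± 0.36 and *Col5a2*, a chain of collagen V, at 6.30 ± 0.31. Of 6 other fibril-associated collagen genes, 2 were tested and only *Col9a2* of collagen IX rose, by 1.94 ± 0.55 at T3 and by 3.64 ± 0.52 at T9 over T0. Of 16 partners and receptors of these collagens, 11 were tested. From T0 to T3, 7 rose and 1 fell, led by the small proteoglycans fibromodulin (*Fmod*, 6.68 ± 0.44) and decorin (*Dcn*, 5.62 ± 0.31). From T0 to T9, 9 rose and 1 fell, with *Dcn* at 9.34 ± 0.35 and *Fmod* at 8.59 ± 0.42. From T3 to T6, 4 of the 9 fibril-forming genes and 3 of the 11 partners rose, and from T6 to T9 1 of the 11, *Dcn* (1.54 ± 0.24, adjusted p = 0.00783). Among the fibril-forming genes, edgeR called 0 of 9 in that step, with 5 at an unadjusted p under 0.05, where 2104 of 13372 genes were. *Fmod*, *Col1a1* and *Col1a2* also belong to the tenocyte markers.

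The cells were next divided by whether they held a UMI of *Scx* or of *Tnmd*, and the UMIs of both classes were summed in each plate and compared within plates by edgeR. A cell without a UMI can still express the gene. At T9, cells with *Tnmd* had more *Col6a3* and *Col12a1* and less *Col6a1*, *Col6a2* and *Col14a1* than cells without. Here 5 of the 6 genes were called, where 1.3% of the 11307 genes tested were called in either direction. There were 36 to 74 *Tnmd*-positive cells in a plate at T9 and 308 to 348 negative ones. The positive cells were deeper, with a median of 10039.5, 7734 and 8391.5 UMIs against 8743, 7303.5 and 7029.5.

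In the positive class, *Col12a1* was at 526, 277 and 1067 CPM in T9 replicates 1, 2 and 3, and in the negative class at 223, 194 and 608. It was higher with *Tnmd* in each plate, by a log2 difference of 0.89 ± 0.12 (adjusted p = 0.000129). *Col6a3* was at 497, 378 and 564 with *Tnmd* and at 302, 201 and 497 without, also higher in each plate (0.61 ± 0.12, adjusted p = 0.0100). *Col6a1* ran the other way, with 1255, 730 and 1530 against 1356, 1208 and 2320 (-0.46 ± 0.10, adjusted p = 0.0221). *Col6a2* was at 1030, 468 and 1189 against 1292, 931 and 1957 (-0.65 ± 0.12, adjusted p = 0.00538). The largest difference was that of *Col14a1*, at 92.5, 27.7 and 166 with *Tnmd* against 147, 110 and 320 without (-1.01 ± 0.19, adjusted p = 0.00566). *Col16a1* did not pass, with 135, 50.4 and 224 against 111, 64.4 and 188 (0.15 ± 0.16, adjusted p = 0.876). The transcripts for the chains of one heterotrimer, α3 on one side and α1 and α2 on the other, thus differed in opposite directions in this fit. No protein was measured here. With cells thinned to 3000 UMIs before they were classed, *Col6a3* was no longer called (0.55, adjusted p = 0.0891) and the other 4 calls were made. Without T9 replicate 1, 4 genes were called, of which *Col12a1* was higher and 3 were lower. Without T9 replicate 2 only *Col12a1* was called, and without T9 replicate 3 only *Col12a1* and *Col6a3*, so that none of the 3 lower genes passed in either fit. In these 2 fits the adjusted p of edgeR was 0.462 and 0.263 for *Col6a1*, 0.163 and 0.0713 for *Col6a2* and 0.0746 and 0.0579 for *Col14a1*, and all 3 values kept their sign. Other markers moved with the class: 7 of the 9 tenocyte markers other than *Tnmd* were higher, and the adipocyte marker *Fabp4*, the only one tested, was higher by 1.90 ± 0.38 (adjusted p = 0.00819). The 4 adipocyte markers summed to between 37.8 and 222 CPM with *Tnmd* and between 18.4 and 44.1 without, and were higher in 3 of 3 plates. The chondrocyte markers too were higher in 3 of 3 plates, at 68.0 to 233 CPM against 56.0 to 113. The epithelial markers were higher in 0 of 3 plates, at 8.72 to 80.6 against 27.3 to 118. So were the macrophage and blood markers, at 0 to 5.82 against 5.15 to 10.9. The part of all these markers in the collagen values of the 2 classes was not tested.

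**Figure D3:**
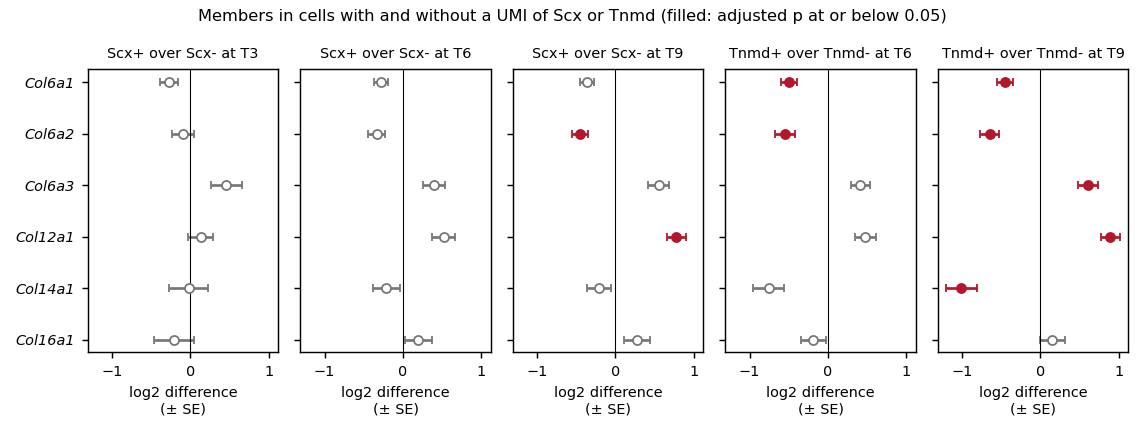
Log2 difference of each collagen gene between cells with and without a UMI of *Scx* (T3, T6 and T9) or *Tnmd* (T6 and T9), as point and SE from edgeR on 3 plates a time. Filled points passed an adjusted p of 0.05. *Col12a1* lies to the right and *Col14a1* to the left in the panel of *Tnmd* at T9 (0.89 and -1.01).

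At T6, *Col6a1* (-0.49 ± 0.11, adjusted p = 0.0202) and *Col6a2* (-0.55 ± 0.13, adjusted p = 0.0336) were lower in the *Tnmd*-positive cells, where 0.831% of all genes were called. The others did not pass, with -0.76 ± 0.20 for *Col14a1* (adjusted p = 0.0808), 0.48 ± 0.13 for *Col12a1* (adjusted p = 0.0917), 0.41 ± 0.12 for *Col6a3* (adjusted p = 0.139) and -0.18 ± 0.16 for *Col16a1* (adjusted p = 0.901). *Col14a1* was lower and *Col12a1* higher in the positive class of each of the 3 T6 plates. Without T6 replicate 1 or without T6 replicate 2, no member was called. With cells thinned to 3000 UMIs, 1 member was called higher and 1 lower at T6. The difference between T9 and T6 in the effect of the class was tested directly by edgeR and passed for 0 of the 6 members and 0% of all genes. At an unadjusted p under 0.05 there was 1 member, *Col12a1* (0.41 ± 0.18, adjusted p = 0.998), where 531 of 11307 genes were. The other members gave 0.04 ± 0.15 (*Col6a1*), -0.10 ± 0.18 (*Col6a2*), 0.19 ± 0.17 (*Col6a3*), -0.25 ± 0.28 (*Col14a1*) and 0.34 ± 0.23 (*Col16a1*). DESeq2 also called 0 members and 0 genes there. Of 8 fibril-forming collagen genes tested at T9, 4 were higher in *Tnmd*-positive cells and none was lower, with *Col5a2* (0.97 ± 0.21) and *Col11a1* (0.55 ± 0.11) the largest. Of 11 partners, *Fmod* was higher (1.45 ± 0.15) and *Dcn* lower (-0.59 ± 0.13).

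Between cells with and without *Scx*, fewer members were called in the main fit than between those with and without *Tnmd*. In cells thinned to 3000 UMIs, 4 members were called at T9 for each of the 2 genes. At T9, 128 to 178 cells a plate held *Scx* and 204 to 253 did not, and 2 of the 6 members were called, where 0.413% of 11859 genes were. *Col12a1* was at 377, 276 and 851 CPM in *Scx*-positive cells and at 200, 168 and 527 in negative cells (0.78 ± 0.12, adjusted p = 0.00193). *Col6a2* was at 1062, 667 and 1557 against 1406, 976 and 2086 (-0.45 ± 0.10, adjusted p = 0.0433). *Col12a1* was higher and *Col6a2* lower in all 3 plates. *Col6a1* (-0.36 ± 0.09, adjusted p = 0.0622) and *Col6a3* (0.55 ± 0.13, adjusted p = 0.0600) missed the threshold, and both were called in cells thinned to 3000 UMIs. *Col14a1* (-0.21 ± 0.15, adjusted p = 0.965) and *Col16a1* (0.28 ± 0.16, adjusted p = 0.925) did not pass. The call of *Col6a2* was lost without any one plate of T9 (adjusted p from 0.178 to 0.612). Without T9 replicate 1 no member was called, without T9 replicate 2 only *Col12a1* was, and without T9 replicate 3 *Col12a1* and *Col6a3* were. Of the 9 tenocyte markers other than *Scx*, 6 were higher in the positive cells, and *Fabp4* gave 1.30 ± 0.30 (adjusted p = 0.0600). Summed adipocyte, chondrocyte and smooth muscle markers were each higher with *Scx* in 3 of 3 plates. For chondrocyte markers the sums were 60.9 to 189 CPM against 54.7 to 83.8. Summed pluripotent, endothelial, Schwann cell and epithelial markers were each higher in 0 of 3 plates. The part of these markers in the collagen values was not tested. The effects of the *Scx* and *Tnmd* classes, which share cells, were not tested against each other. *Fmod* (1.23 ± 0.17) was the called partner gene, and *Col1a1* (0.35 ± 0.06) and *Col1a2* (0.29 ± 0.06) were the called fibril-forming collagens.

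At T3 and T6, edgeR called 0 members between *Scx*-positive and *Scx*-negative cells, where 0.801% and 0.523% of all genes were called. At an unadjusted p under 0.05 by edgeR there were 2 members at T3 and 4 at T6, where 1292 and 925 of 11859 genes were. DESeq2 called 0 members at both times. At T3 the log2 difference was -0.27 ± 0.12 for *Col6a1*, -0.09 ± 0.14 for *Col6a2*, 0.46 ± 0.20 for *Col6a3*, 0.13 ± 0.16 for *Col12a1*, -0.02 ± 0.25 for *Col14a1* and -0.21 ± 0.25 for *Col16a1*. At T6 it was -0.27 ± 0.09, -0.34 ± 0.10, 0.40 ± 0.14, 0.52 ± 0.14, -0.21 ± 0.17 and 0.20 ± 0.18 in the same order. The change of the *Scx* class effect from T3 to T9 was called for 0 members, where 0.0928% of all genes were. At an unadjusted p under 0.05 there was 1 member, *Col12a1* (0.64 ± 0.20, adjusted p = 0.399 by edgeR), where 863 of 11859 genes were. The change was -0.09 ± 0.14 for *Col6a1*, -0.36 ± 0.17 for *Col6a2*, 0.10 ± 0.24 for *Col6a3*, -0.20 ± 0.29 for *Col14a1* and 0.49 ± 0.30 for *Col16a1*. DESeq2 called 0 members for it as well. The plot of class differences shows *Col12a1* and *Col6a3* to the right of 0 and *Col6a1* and *Col6a2* to the left in each of the 5 panels, by amounts of which 8 of 20 passed. For *Scx* at T3, the sign of *Col12a1* turned without T3 replicate 2 (-0.17) and that of *Col6a2* without T3 replicate 3 (0.04). The *Scx* classes at T3 differed in markers of other cells. Of 6 pluripotent markers tested, edgeR called 4 lower in the positive cells. The 8 in the list summed to between 65.7 and 86.8 CPM with *Scx* and between 213 and 632 without. Of 6 smooth muscle markers, 2 were lower, as was the 1 adipocyte marker tested (-6.12). Of 9 tenocyte markers, 2 were higher. The part of these markers in the collagen values was not tested.

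The Achilles tendon of the mouse lacking *Scx* was examined in 4 libraries of 11188270 to 12398560 counts. *Scx* itself had 1151 and 996 counts in the Scx_Wt and 287 and 296 in the Scx_homoKO libraries, as labelled (log2 fold change -1.88 ± 0.17, adjusted p = 0.000429). The gene-level counts do not tell which part of *Scx* the remaining reads came from. *Tnmd* was at 16336 and 15406 counts against 3327 and 3113. In bulk RNA, fewer cells of a type and less RNA per cell cannot be told apart. The 8 skeletal muscle markers summed to between 31484 and 58177 CPM in Scx_Wt and between 74752 and 78405 in Scx_homoKO libraries. EdgeR called 0 of 8, with 4 at an unadjusted p under 0.05, where 2510 of 14602 genes were. The 10 tenocyte markers summed to between 152621 and 165679 in Scx_Wt and between 72478 and 83457 in Scx_homoKO, the 7 chondrocyte markers to between 1166 and 1317 and between 279 and 307, with *Matn1* at 0 in both, and the 4 adipocyte markers to between 1063 and 2419 and between 341 and 659. The 6 smooth muscle markers summed to between 2536 and 3015 in Scx_Wt and between 3385 and 3651 in Scx_homoKO, and the 6 endothelial markers to between 856 and 865 and between 543 and 643. The genotypes did not overlap in any of these 6 sums. For smooth muscle, the sum was higher in Scx_homoKO but the median log2 fold change over the 6 genes was -1.31. Of these genes, edgeR called 1 lower and 0 higher, so the sum does not give the direction of the list. Of 5 epithelial markers, 2 were tested and edgeR called both higher in Scx_homoKO, with a median log2 fold change of 4.36. The part of all these markers in the collagen values was not tested. The 5 Schwann cell markers spread within a genotype, at 5732 and 46.1 in the Scx_homoKO libraries and 657 and 647 in the Scx_Wt libraries.

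*Col14a1* was higher in the Scx_homoKO tendon, and it was the only one of the 6 genes called by edgeR, where 3.84% of 14602 genes were called in either direction. Its counts were 4177 and 2777 in the Scx_Wt and 8549 and 10674 in the Scx_homoKO libraries, so the genotypes did not overlap. The log2 fold change was 1.47 ± 0.25 (adjusted p = 0.0128). *Col12a1* had 8029 and 8786 counts in Scx_Wt and 4983 and 5143 in Scx_homoKO libraries, also without overlap, and did not pass (-0.73 ± 0.18, adjusted p = 0.0631). DESeq2 called it (adjusted p = 0.000242), and it was also called without Scx_Wt replicate 1. *Col16a1* had 7095 and 6724 counts against 9921 and 9422 (0.48 ± 0.18, adjusted p = 0.209), and DESeq2 gave an adjusted p of 0.0318.

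*Col6a1*, *Col6a2* and *Col6a3* were not called between the genotypes. *Col6a1* had 25119 and 22756 counts in Scx_Wt and 24133 and 25652 in Scx_homoKO libraries (0.06 ± 0.22, adjusted p = 0.932). *Col6a3* had 14550 and 14108 against 13421 and 14507 (-0.03 ± 0.20, adjusted p = 0.959). Both genes overlapped between the genotypes. *Col6a2* had 22558 and 20300 against 28741 and 29903, without overlap and without passing the test (0.45 ± 0.22, adjusted p = 0.327). *Col6a6*, which was nearly absent from the cultured cells, had 854, 614, 839 and 1006 counts in the 4 tendon libraries, and *Col6a4* and *Col6a5* had 0 to 14 and 11 to 66.

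**Figure D4:**
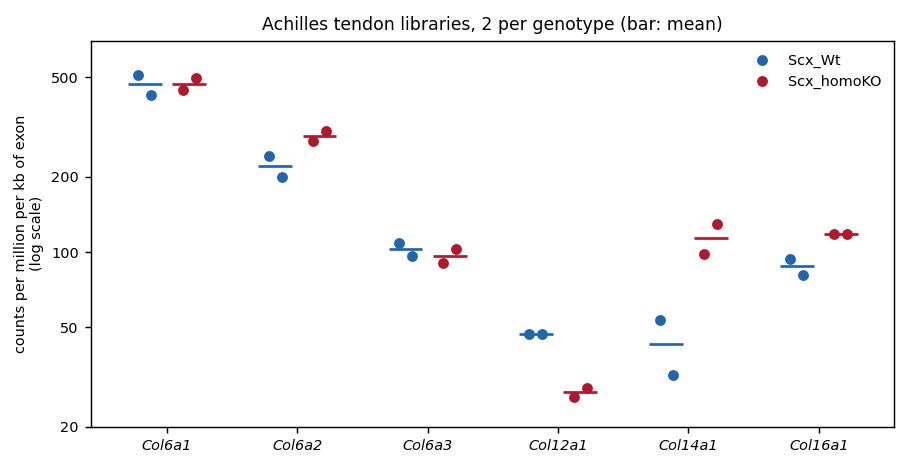
CPM per kilobase of exon (log scale) of the 6 collagen genes in each Achilles tendon library, 2 Scx_Wt and 2 Scx_homoKO, with the mean as a bar. *Col14a1* has means of 42.8 and 114, *Col12a1* of 47.1 and 27.5, and the genotypes overlap in *Col6a1* and *Col6a3*.

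Levels were compared between genes after division by the length of the merged exons, which was 4.38 kb for *Col6a1*, 8.33 kb for *Col6a2*, 11.96 kb for *Col6a3*, 15.2 kb for *Col12a1*, 7.01 kb for *Col14a1* and 6.75 kb for *Col16a1*. The merged exons take in every annotated exon of a gene, so the order of the genes depends on the annotation. Which transcripts the tendon made was not tested. Before the division, the Scx_Wt counts of *Col6a1* and *Col6a2*, given above, were close. By this measure *Col6a1* was the highest in the Scx_Wt tendon, at 468 ± 63 CPM per kb (SD, n = 2), and ranked 50 and 68 among 47224 genes with a length in the 2 libraries. *Col6a2* followed at 221 ± 31, *Col6a3* at 102 ± 9 and *Col16a1* at 87.6 ± 9.0, and the ranges of the last 2 did not overlap. *Col12a1* (47.1 and 47.1) and *Col14a1* (53.2 and 32.3) were the lowest and their ranges overlapped. In the Scx_homoKO tendon *Col16a1* was at 119 ± 0.03, *Col14a1* at 114 ± 22 and *Col6a3* at 96.7 ± 8.8, with overlapping ranges of *Col14a1* with each of the other two, and *Col12a1* was alone at the lowest level, 27.5 ± 1.6. The ratio of *Col12a1* to *Col14a1* per length was 0.885 and 1.46 in Scx_Wt and 0.268 and 0.222 in Scx_homoKO libraries. That of *Col6a1* to *Col6a2* was 2.12 and 2.13 against 1.60 and 1.63.

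Among the 11 fibril-forming collagen genes in the tendon, 3 were higher and 3 lower in Scx_homoKO libraries, with the largest differences in *Col2a1* (-5.09 ± 0.29) and *Col11a2* (-4.34 ± 0.23), genes of cartilage collagens II and XI. Of the 5 other fibril-associated collagen genes tested, edgeR called 0, with 1 at an unadjusted p under 0.05, *Col22a1*, which was named after its value was seen. Of 15 partners and receptors, 4 were lower and none higher, with matrilin-3 (*Matn3*, -3.99 ± 0.43) and *Fmod* (-1.89 ± 0.23) the largest. The medians were 0.26 over the 6 genes and -0.00 over all genes tested on the log2 scale.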

How the data were processed

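CEL-Seq2 wells of mouse ScxGFP iPSC-derived cells (T0, T3, T6 and T9, 3 plates each) and bulk poly(A) RNA-seq of Achilles tendon (2 Scx_Wt and 2 Scx_homoKO libraries) were analysed. The authors deposited raw counts per Ensembl gene, made on GRCm38 with HISAT2 2.2.1, featureCounts and UMI-tools 1.0.1 for cells and HISAT2 2.0.4 and featureCounts 1.5.0 for bulk, per the submitters' processing notes. The annotation release and the strand setting are not given in the sources used here. A total of 3 entries without an Ensembl identifier (0.0642% of UMIs) were left out, as were wells under 200 genes.

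UMIs were summed per plate and tested with edgeR 4.0.16 (R 4.3.3; filterByExpr, TMM, quasi-likelihood test, Benjamini-Hochberg over all genes tested, threshold 0.05). All 12 plates shared one fit, and SE is the log2 fold change divided by the square root of F. Cells with at least 1 UMI of *Scx* or *Tnmd* were summed apart from the others, with the plate as a block. Shares were compared by exact permutation over plates after thinning each cell to 3000 UMIs. Doublets were not called, since cells were sorted singly. Each library held 1921125 to 12398560 counts, and intervals and limits cover counting error only.

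The 6 genes are reported in every comparison, and from each list at most the 2 called genes with the largest change. The members and lists were chosen with earlier results of these data known. Same-numbered plates did not deviate together (r from -0.563 to 0.515, over 0.1 in 4 of 18 pairs), nor did the bulk libraries (r = 0.0715). Alternatives were RLE size factors, DESeq2 1.42.0, no filter, a replicate block, a covariate for the plate split, only the plates compared, at least 1000 genes a cell, thinned cells, at least 2 UMIs for a positive cell and leaving out each replicate.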

Additional observations from a re-analysis of the deposited data

How the results depend on the processing

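Of the values reported for the 6 genes, 62 were recomputed, 678 times in all: 587 kept their direction and side of the threshold, 36 passed where they had not, 39 no longer passed and 16 changed sign. Of the changes in a class effect between times, only those of *Col12a1* were among them. All 6 genes were called from T0 to T9, and 5 in the test of shares, under every alternative run. The test of shares was not run over all genes. From T0 to T3, 5 genes were called, against 6 with no filter, with the library split as a covariate, with only the 6 plates compared and without T3 replicate 1. From T3 to T6, 4 were called, against 5 by DESeq2, with no filter and with the split as a covariate, 3 with only the 6 plates compared and 3 to 5 without a replicate. From T6 to T9, 2 genes were called, against 4 with no filter, 4 with the library split as a covariate, 1 with at least 1000 genes a cell, 1 in thinned cells, 0 with only the 6 plates compared and 0 to 2 without a replicate. In the tendon, 1 gene was called, against 3 by DESeq2, 2 with no filter and 1 to 2 without a replicate. For *Scx* at T3, 0 were called, against 1 in thinned cells. For *Scx* at T6, 0 were called, against 2 with no filter, 1 in thinned cells and 0 to 1 without a replicate. For *Scx* at T9, 2 were called, against 3 by DESeq2, 3 with at least 1000 genes a cell, 4 with no filter, 4 with at least 2 UMIs for a positive cell, 4 in thinned cells and 0 to 2 without a replicate. For *Tnmd*, 2 were called at T6, against 3 with no filter, 4 with at least 2 UMIs and 0 to 2 without a replicate, and 5 at T9, against 4 in thinned cells and 1 to 4 without a replicate. In thinned cells 2 were also called at T6, but 1 was higher and 1 lower, where the main fit had 2 lower. The replicate block is a pairing by number only. With it, 0 genes were called from T6 to T9, 3 in place of 4 from T3 to T6 and 2 in the tendon. The number of all genes called moved between alternatives too. From T6 to T9 it was 217 of 13372 in the main fit, 813 of 13372 with the split as a covariate and 684 of 29624 with no filter. In the tendon it was 560 of 14602 in the main fit, 753 of 15318 by DESeq2 and 1415 of 23530 with no filter. For *Scx* at T9 it was 49 of 11859 in the main fit and 34 of 8893 by DESeq2. With no filter it was 129 of 27668, with at least 2 UMIs 139 of 10863 and in thinned cells 65 of 8527. For *Tnmd* at T6 it was 94 of 11307 in the main fit and 269 of 11009 with at least 2 UMIs.

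The values that changed sign passed no test. In thinned cells *Col16a1* was at -0.041 from T6 to T9 and -0.17 for *Scx* at T6, and the change of the *Tnmd* effect in *Col12a1* was -0.16. For *Scx* at T3, *Col14a1* was at 0.0053 by DESeq2 and 0.061 with no filter, and *Col16a1* at 0.062 with at least 1000 genes. Without a replicate, *Col16a1* from T6 to T9 ran from -0.19 to 0.46, and in the tendon *Col6a1* ran from -0.057 to 0.17 and *Col6a3* from -0.16 to 0.088. For *Scx* at T3, *Col6a2* ran from -0.31 to 0.041, *Col12a1* from -0.17 to 0.30, *Col14a1* from -0.20 to 0.52 and *Col16a1* from -0.44 to 0.055. The causes of these changes were not tested. With 2 libraries a genotype and 1 or 2 plates on each side of the plate split, small differences could not be told from replicate spread.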
